A study of Homo sapiens with 8 samples.

Results

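PAX3, FOXO1 and PAX7 were examined as the 3 genes whose rearrangement gives the fusion oncogenes of alveolar rhabdomyosarcoma. They were taken by name from 15842 protein-coding genes of known strand, and every NF-Y peak inside each gene or within 100 kb of it was collected from 6 deposited peak lists. These regions held 13 of the 22724 peaks. The peaks came from CUT&RUN, an assay that cuts out and sequences the DNA next to a protein recognised by an antibody. RH4 and RH30 are established rhabdomyosarcoma cell lines, and all groups are labelled PAX3-FOXO1+. Untreated, uninfected RH4 cells gave 1 library with an NFYB antibody and 1 with an NFYC antibody. RH30 cells engineered with an inducible cytosine base editor (titled seBE) received 1 of 4 guide RNAs by transduction. After blasticidin selection, rapamycin was given to switch the editor on, and cells were collected 8 days later for 1 NFYB library per guide. The guides were the controls sgCtrl1 and sgCtrl2, and sgCCAAT2a and sgCCAAT2b, which are directed at a CCAAT motif of the endogenous PAX3 promoter. The libraries of the CCAAT guides are called edited here; the labels state that editing was checked by Sanger sequencing, and its extent was not analysed here. All 4 RH30 groups carried the editor and received rapamycin. Libraries titled RH30 are labelled RH4 as cell line and are named here by title, which goes with the design text. Whether each line is 1 clone is not stated, and NF-Y peaks do not read out cell identity, which was therefore not checked.

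NF-Y is a heterotrimer of NFYA, NFYB and NFYC: NFYB and NFYC pair through histone-fold domains, and NFYA then contacts the letters CCAAT, most often a short way upstream of a transcription start. PAX3 and PAX7 are paired-box transcription factors of muscle progenitors and the neural crest, and FOXO1 is a forkhead factor restrained by insulin signalling. In the fusion, the 5' part of PAX3 or PAX7, promoter included, is joined to the 3' part of FOXO1. The PAX3 promoter therefore serves both the unrearranged PAX3 gene and the PAX3-FOXO1 oncogene, whereas the FOXO1 promoter stays outside the fusion gene. A peak position does not tell these copies apart.

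The 250 bases upstream of each 5' end are shown because the promoter peaks of PAX3 and FOXO1 lie on them in whole or in large part. They come from RefSeq (GRCh38.p14), run 5' to 3' on the strand of the gene, and end at the base before the annotated start. Capitals mark each CCAAT, or ATTGG where the motif lies on the opposite strand. The intervals are chr2:222298999-222299248 on the minus strand for PAX3, chr13:40666642-40666891 on the minus strand for FOXO1 and chr1:18630596-18630845 on the plus strand for PAX7.
PAX3: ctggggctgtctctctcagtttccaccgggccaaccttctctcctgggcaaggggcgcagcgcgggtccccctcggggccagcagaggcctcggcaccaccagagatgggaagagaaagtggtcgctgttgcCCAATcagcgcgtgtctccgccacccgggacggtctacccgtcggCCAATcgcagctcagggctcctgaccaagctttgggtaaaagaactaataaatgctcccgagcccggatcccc
FOXO1: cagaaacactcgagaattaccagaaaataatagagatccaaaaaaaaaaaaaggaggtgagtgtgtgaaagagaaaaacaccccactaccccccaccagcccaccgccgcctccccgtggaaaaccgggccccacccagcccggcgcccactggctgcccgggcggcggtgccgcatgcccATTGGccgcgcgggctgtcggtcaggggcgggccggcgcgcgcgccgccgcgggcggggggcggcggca
PAX7: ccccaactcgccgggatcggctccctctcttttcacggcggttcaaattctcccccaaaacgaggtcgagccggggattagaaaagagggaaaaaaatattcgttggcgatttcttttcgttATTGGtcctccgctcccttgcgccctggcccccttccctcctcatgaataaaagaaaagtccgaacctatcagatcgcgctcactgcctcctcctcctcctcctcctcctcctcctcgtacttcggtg
The PAX3 promoter held 2 CCAAT motifs, both in the direction of the gene. The distal one, gttgcCCAATcagcg with its flanks, occupied the bases 118 to 114 bp upstream of the 5' end (chr2:222299112-222299116). The proximal one, gtcggCCAATcgcag, lay 73 to 69 bp upstream (chr2:222299067-222299071). Their starts were 45 bp apart. The labels do not say which of them the guides address. FOXO1 and PAX7 held 1 motif each, on the opposite strand. Read on that strand, the FOXO1 motif was cgcggCCAATgggca at 69 to 65 bp upstream, and the PAX7 motif was gaggaCCAATaacga at 128 to 124 bp upstream. The motifs of PAX3 and FOXO1 also matched a longer form, CCAAT followed by CA, CG, GA or GG, and the PAX7 motif did not.

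A CCAAT was a common feature of promoters, and a pair of them was less common. Over the 300 bases from 250 bp upstream to 50 bp into each gene, searched on both strands for CCAAT, 36.4% of the 15842 promoters held at least 1 motif (95% exact Clopper-Pearson interval 35.6 to 37.2%, counting of genes only, as for all intervals below). At least 2 motifs were found in 12.5%, and the longer form in 20.5%. Among the 12343 genes with no peak at the 5' end in any list, 27.9% held a CCAAT, and among the 1182 genes with a peak in all 6 lists it was 87.1%. PAX7 thus belongs to the 3449 genes that held the motif without a peak. Motifs at genes with a peak were densest 75 to 50 bp upstream, at 26.2 per 100 promoters, against 5.83 per 100 in the same bin at genes without one. The proximal PAX3 motif and the FOXO1 motif fell into that bin. A pair on 1 strand with starts 40 to 50 bp apart, a range chosen after the PAX3 spacing was known, stood in 1.95% of all promoters and in 11.8% of the 1608 genes with a 5' end peak in both RH4 lists and both control lists.

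**Figure D1:**
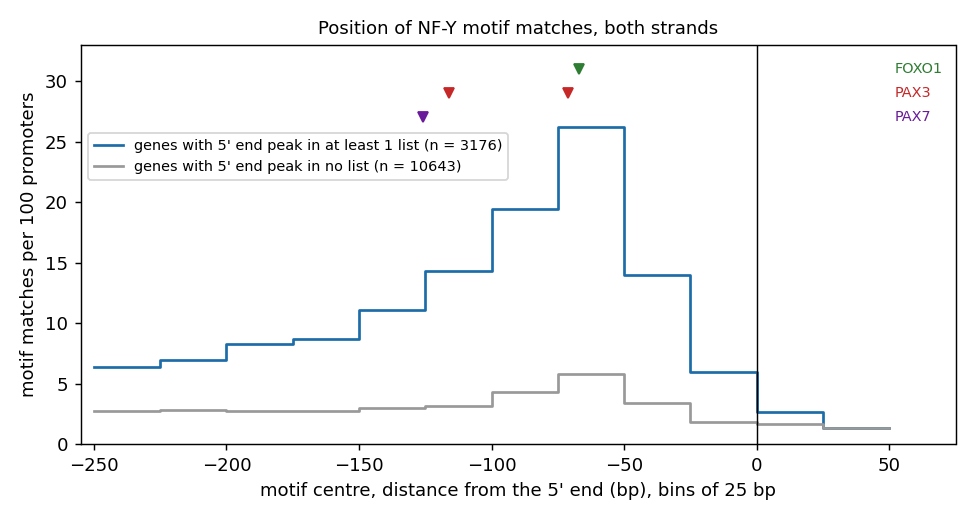
CCAAT matches per 100 promoters (both strands, bins of 25 bp) by distance from the 5' end, for 3176 genes with a 5' end peak in at least 1 list and 10643 genes with none, each with its promoter at the gene's 5' end; triangles mark the motifs of the 3 genes. Both curves are highest from 75 to 50 bp upstream (26.2 and 5.83 per 100), where 1 PAX3 motif and the FOXO1 motif lie.

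The PAX3 gene, at chr2:222199887-222298998 of hg38 on the minus strand, carried a peak at its 5' end in 4 of the 6 lists. A peak counts as at the 5' end when it overlaps the 1000 bp either side of it. The RH4 NFYB peak was 228 bp wide and reached from 222298920 to 222299147, across the start into the gene. The RH4 NFYC peak was 93 bp wide, from 222299050 to 222299142, and the deposited RH4 consensus entry had the same ends. The sgCtrl1 peak (222299014 to 222299202, 189 bp) and the sgCtrl2 peak (222299005 to 222299201, 197 bp) ended short of the start. These 4 peaks shared 93 bp, and each covered both CCAAT motifs in full. The sgCCAAT2a and sgCCAAT2b lists held no entry there, so the edited lists stood apart from all 4 others at this promoter. As background, a 5' end peak was called at 15.4% of genes for NFYB and 15.9% for NFYC in RH4, at 13.1% with sgCtrl1, 17.1% with sgCtrl2, 9.39% with sgCCAAT2a and 9.73% with sgCCAAT2b.

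The PAX3 peak centres lay nearer to the distal than to the proximal motif in 3 of the 4 lists. Per the file headers, RH30 peaks were centred on the maximum tag pile-up. The centre stood 6 bp from the middle of the distal motif with sgCtrl1 and 11 bp with sgCtrl2, and 39 bp and 34 bp from the proximal motif. In RH4 the NFYC centre was 18 bp from the distal and 27 bp from the proximal motif and lay between them. The wider RH4 NFYB peak was centred 35.5 bp downstream of the proximal motif and 80.5 bp from the distal one. Over all genes with a CCAAT and a peak centre in the promoter, the median distance from the centre to the nearest motif was 20 bp with sgCtrl1 (middle 50% of genes 9 to 42 bp, n = 1373) and 27 bp with sgCtrl2 (11 to 52 bp, n = 1502). For RH4 it was 21 bp with NFYB (9.5 to 45 bp, n = 1499) and 18 bp with NFYC (8 to 34 bp, n = 1641). The PAX3 distances to the nearest motif were thus at or below the lower bound of the middle 50% in both RH30 controls and inside it in both RH4 lists. Motifs 45 bp apart are closer than the width of every one of these peaks, and which of them was occupied cannot be told apart.

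**Figure D2:**
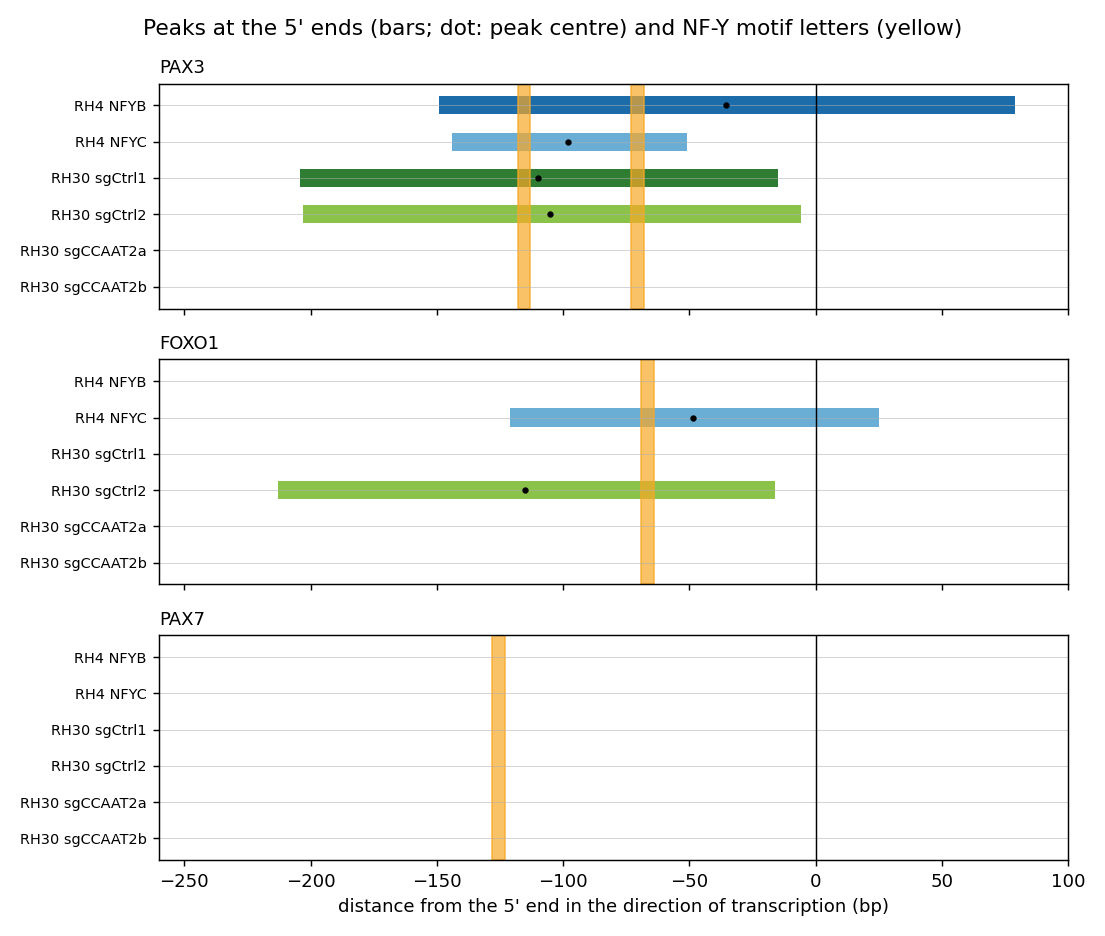
Peaks at the 5' ends of PAX3, FOXO1 and PAX7 in the 6 lists, in bp from the 5' end in the direction of transcription; bars span the peak, dots mark its centre and yellow bands mark the motif letters. At PAX3 the 4 bars cover both bands and both edited rows are empty; at FOXO1 the 2 bars cover the single band; PAX7 has a band and no bar.

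The edited lists lacked peaks at many genes besides PAX3. Of the 1608 genes (10.2%) with a 5' end peak in both RH4 lists and both control lists, 252 (15.7%, 13.9 to 17.5%) had a peak in neither edited list, which is the pattern of PAX3 and that of 1.59% of all 15842 genes. Another 174 (10.8%) had a peak in 1 edited list and 1182 (73.5%) in both. The share differed with where the peak stood in the sgCtrl2 file, although the headers do not say what the order follows. With these genes placed in 4 groups of 402 by that order, the share with no edited peak was 0.249%, 5.22% (3.26 to 7.87%), 19.2% and 38.1%. PAX3 was gene 581 of 1608 and fell into the group with 5.22%, in which 21 of 402 genes had no edited peak. By the number of motifs in the promoter, the share was 24.8% (19.5 to 30.7%) of 242 genes with none, 25.3% (21.5 to 29.4%) of 486 genes with 1, and 7.84% (6.15 to 9.82%) of 880 genes with at least 2, as PAX3 has. It was thus lower at 2 or more motifs and did not fall from none to 1. Motifs were counted from 250 bp upstream to 50 bp into each gene, whereas a peak counts within 1000 bp. Peak centres can therefore lie outside the sequence searched, also at genes counted as having no motif. The median place in the file was 991 with none, 1358 with 1 and 784.5 with at least 2. Within the group of 402 that holds PAX3, the share was 7.69% (2.88 to 16.0%) of 78 genes with none, 6.45% (2.40 to 13.5%) of 93 with 1 and 3.90% (1.80 to 7.27%) of 231 with at least 2, 9 genes with PAX3 among them. These 3 intervals overlapped, which with 6, 6 and 9 genes does not show that the shares are alike. Per the file headers the edited libraries were the deepest, at 21.2 M and 28.2 M tags against 13.9 M with sgCtrl1 and 10.5 M with sgCtrl2, and peaks held the smallest part of their tags, at 1.22% and 1.46% against 2.40% and 3.10%. The part of these differences in the missing peaks was not tested.

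**Figure D3:**
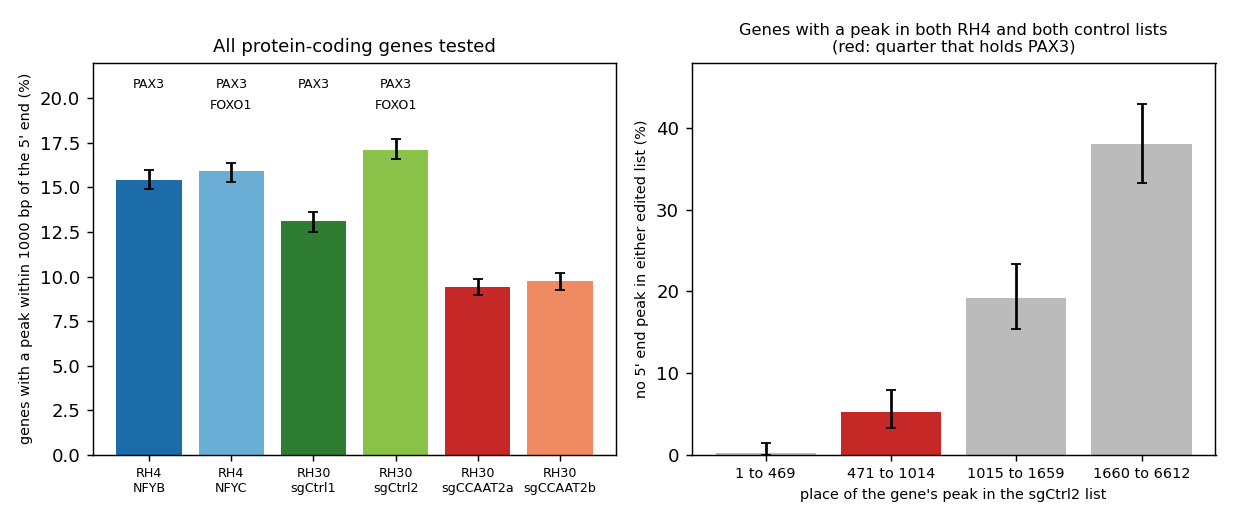
Left, percent of 15842 protein-coding genes with a peak within 1000 bp of the 5' end in each list, with the lists that hold a PAX3 or FOXO1 peak named above the bars; right, percent of genes with no peak in either edited list, for 1608 genes with a peak in the other 4 lists, in 4 groups of 402 by place in the sgCtrl2 list. Error bars are 95% exact intervals. The edited lists are the lowest on the left (9.39 and 9.73%), and the group that holds PAX3 stands at 5.22% on the right.

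In the authors' deposited tables of differential peaks, the PAX3 promoter peak had an entry for sgCtrl2 over sgCCAAT2a and an entry for sgCtrl2 over sgCCAAT2b, and none for sgCtrl2 over sgCtrl1. An entry needed a tag excess of 2.5-fold with the caller's Poisson threshold of 0.001, set between 1 library and 1 other. Over all 6687 sgCtrl2 peaks, the authors' deposited tables listed 61.9% over sgCCAAT2a, 60.7% over sgCCAAT2b and 36.2% over sgCtrl1. Among the 2406 sgCtrl2 peaks at a protein-coding 5' end the shares were 56.2%, 49.9% and 10.5%. Of these 2406 peaks, 34.3% had the same combination as PAX3 in the authors' deposited tables. The 3 tables share the sgCtrl2 library, so they are not independent comparisons.

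Genes with the pattern of PAX3 over the 6 lists mostly stood later in the sgCtrl2 list. There were 251 of them, with 226 distinct sgCtrl2 peaks, since neighbouring genes can share a promoter. Their places ran from 443 to 3497 with a median of 1779, and 5 stood before PAX3, at place 703. Of the 1608 genes with a 5' end peak in both RH4 and both control lists, 242 held no CCAAT in the promoter and 880 held at least 2. Of the 251 with the pattern of PAX3, 191 (76.1%) held a CCAAT and 68 held at least 2. The 8 with the nearest place were TMEM141, a small membrane protein; ELL, an elongation factor of RNA polymerase II; RBM4B, an RNA-binding protein; COX14, needed to assemble cytochrome c oxidase; NEURL4; FAM98C; EDF1, a transcriptional coactivator; and ZBTB7A, a zinc finger repressor. Their places ran from 641 (COX14) to 831 (ZBTB7A). RBM4B, FAM98C and EDF1 had the peak centre 100, 74 and 70 bp upstream, and FAM98C alone among these 8 held 2 motifs. Negative values being upstream, the centre stood at -334 bp for TMEM141, -311 bp for ELL, -330 bp for COX14 and -456 bp for NEURL4. For ZBTB7A it stood 926 bp downstream of the 5' end. TMEM141, ELL, NEURL4 and ZBTB7A held no CCAAT in the promoter, and RBM4B, COX14 and EDF1 held 1. The peak centres of TMEM141, ELL, COX14, NEURL4 and ZBTB7A lay outside the sequence searched. Whether a CCAAT lies at those centres was therefore not examined. RBM4B and COX14 were listed over sgCCAAT2a and not over sgCCAAT2b in the authors' deposited tables, and the other 6 over both. Of all 251, 134 (53.4%) were listed over both and not over sgCtrl1, as PAX3 was.

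Around PAX3 the sgCtrl2 list held 3 further peaks, each found in no other list. One lay 19.5 kb inside the gene (222279384 to 222279580) and one 37.9 kb inside it (222261017 to 222261213). The third lay 28.9 kb upstream (222327839 to 222328035), inside the non-coding gene CT75 and 7782 bp from the 5' end of RNF228, the nearest protein-coding start. The exons and introns of these genes were not analysed here. These peaks stood at places 3954, 3853 and 4542 of 6687, far behind the promoter peak at place 703. Of the 690 sgCtrl2 entries from place 3853 to 4542, 89.1% overlapped no peak of the other 5 lists and 86.4% lay away from a protein-coding 5' end. The background for such peaks was wide: 69.3% of the 4281 sgCtrl2 peaks away from a protein-coding 5' end (64.0% of the list) were in no other list, against 22.5% of the 2406 at one. In the authors' deposited tables the peak at 19.5 kb was listed over sgCCAAT2a and over sgCtrl1 and not over sgCCAAT2b, a combination held by 2.83% of sgCtrl2 peaks away from a 5' end. The other 2 were in none of the authors' deposited tables, as were 21.0% of such peaks. All 3 were thus absent from the sgCtrl1 list, and 1 of them, the peak at 19.5 kb, also met both thresholds over sgCtrl1.

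With its promoter peak, PAX3 had 4 sgCtrl2 peaks in a region of 299112 bp, and 11.0% of genes had at least 4 (32.9% at least 2). Among 4577 genes whose region was within 20% of that length, 5.96% had at least 4, and the median was 1. At least 3 more peaks with sgCtrl2 than with sgCtrl1, as at PAX3, were found at 4.27% of genes. At least 1 peak in the region was called at 46.2% and 46.9% of genes for NFYB and NFYC in RH4, 47.8% with sgCtrl1, 60.0% with sgCtrl2, 35.7% with sgCCAAT2a and 36.5% with sgCCAAT2b. Having no peak of either edited list within the region was common, at 61.0% of genes.

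**Figure D4:**
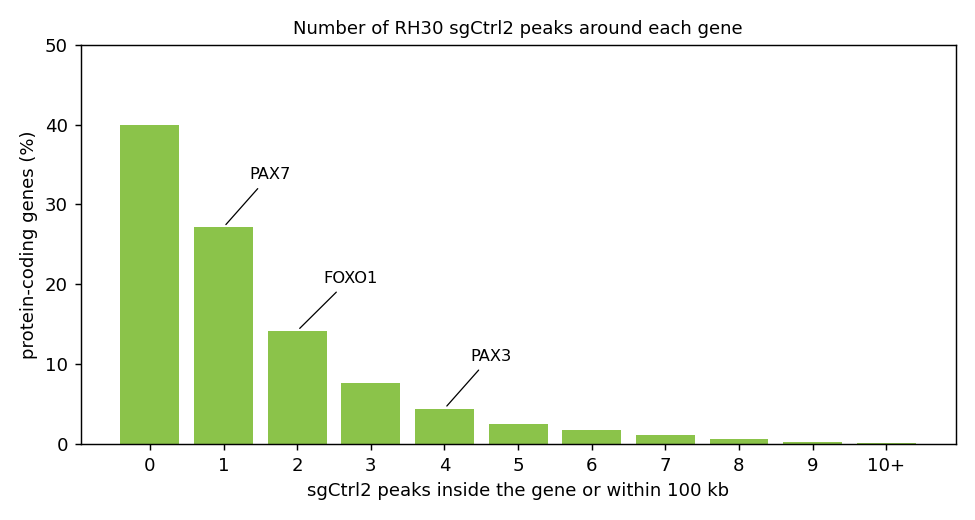
Percent of 15842 protein-coding genes by the number of RH30 sgCtrl2 peaks inside the gene or within 100 kb, with the 3 genes marked. PAX3 has 4 peaks, FOXO1 has 2 and PAX7 has 1; at least 4 were found at 11.0% of genes.

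Apart from these sgCtrl2 peaks, the PAX3 promoter peak stood alone over a long stretch of chromosome 2. The next peak upstream lay 411 kb away, inside MOGAT1, an acyltransferase gene of fat synthesis, and was found in all 6 lists, both edited ones included. Its sgCtrl2 entry (222709555 to 222709751) stood at place 3353, behind the PAX3 peak, and was in none of the authors' deposited tables. Downstream, through the gene and beyond, the nearest peak lay 727 kb away for NFYC in RH4, near EPHA4, an ephrin receptor. It lay 2700 kb away for NFYB in RH4, 2590 kb with sgCtrl1 and 3340 kb with each edited guide. Of the 4 annotated neighbours within 100 kb, the non-coding gene CCDC140 starts 851 bp inside PAX3 on the opposite strand, and the PAX3 promoter peak lies within its span in every list that has it. CUT&RUN does not mark strand, so the peak cannot be given to one of these genes. RNF228, CT75 and LOC107985991 had no 5' end peak in any list.

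FOXO1, at chr13:40555667-40666641 on the minus strand, carried a 5' end peak in 2 lists. The RH4 NFYC peak ran from 40666617 to 40666762, was 146 bp wide and had its centre 48.5 bp upstream of the 5' end. The sgCtrl2 peak ran from 40666658 to 40666854, was 197 bp wide and was centred 115 bp upstream. They shared 105 bp and both covered the single CCAAT, whose middle was 18.5 bp from the NFYC centre and 48 bp from the sgCtrl2 centre. No peak was called there for NFYB in RH4, with sgCtrl1 or in the edited lists, so neither cell line gave the call in both of its unedited lists. The sgCtrl2 entry stood at place 2035, later than that of PAX3. In the authors' deposited tables it had the same combination of entries as the PAX3 peak, over sgCCAAT2a and sgCCAAT2b alone, although sgCtrl1 had no peak there either. That combination was common, at 34.3% of the 2406 sgCtrl2 peaks at a protein-coding 5' end. The pattern of FOXO1 over the 6 lists was found at 69 genes (0.436%), itself included. The 68 others included TMEM86A, EIF4B, a translation initiation factor, TOR2A, ZNF865, MLYCD, an enzyme of malonyl-CoA breakdown, TIA1, a stress granule RNA-binding protein, ILKAP and AP1S2, the 8 nearest in place. A CCAAT was in the promoter of 40 of these 68 (58.8%), and 39 of them (57.4%) were listed over both edited guides and not over sgCtrl1. Among all genes with a 5' end peak, a CCAAT was held by 77.5% for NFYC in RH4 and 69.3% with sgCtrl2.

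Away from its start, FOXO1 had a peak 69.1 kb inside the gene with sgCtrl1 (40597435 to 40597623) and a peak with sgCtrl2 in the flank, 59955 bp beyond the 3' end (40495614 to 40495810). Neither was in any other list. A peak found in no other list made up 24.4% of the sgCtrl1 and 52.5% of the sgCtrl2 list. Among sgCtrl2 peaks away from a protein-coding 5' end, as this one is, the share was 69.3%. With 2 sgCtrl2 peaks FOXO1 was like many genes, since 27.6% of 3840 genes with a region of like length had at least 2. The next peak upstream of FOXO1 lay 1610 kb away, at the 5' end of AKAP11, an anchor protein of protein kinase A, in both RH4 and both control lists, and on that side the edited lists held none nearer than 2370 kb (sgCCAAT2b) and 11300 kb (sgCCAAT2a). MRPS31, a mitochondrial ribosomal protein gene whose span reaches within 100 kb, and LINC00598 had no 5' end peak in any list.

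PAX7, at chr1:18630846-18748866 on the plus strand, carried no peak at its 5' end and none inside the gene in any of the 6 lists. No 5' end peak in any list was the most common state, at 77.9% of genes. The labels give a PAX3 fusion in both lines, and PAX7 is here an unrearranged relative. Its region held 2 peaks, each in 1 list: an sgCtrl1 peak 2594 bp beyond the 3' end (18751366 to 18751554) and an sgCtrl2 peak 78.7 kb upstream (18552049 to 18552245). They stood at place 3205 of 4025 and place 4264 of 6687. Of 3449 genes with a region of like length, 59.5% had at least 1 sgCtrl2 peak, and 47.8% of all genes had at least 1 sgCtrl1 peak. In no other list were 24.4% of all sgCtrl1 peaks and 69.3% of sgCtrl2 peaks away from a protein-coding 5' end. The sgCtrl2 peak near PAX7 was listed over sgCCAAT2b only in the authors' deposited tables. Of all sgCtrl2 peaks, 60.7% were listed over sgCCAAT2b, alone or with other entries. Beyond the region, a peak at the 5' end of ALDH4A1, a mitochondrial enzyme of proline breakdown, lay 272 kb downstream of the PAX7 start in all 6 lists. The adjoining gene TAS1R2, a sweet taste receptor, had no 5' end peak in any list.

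**Figure D5:**
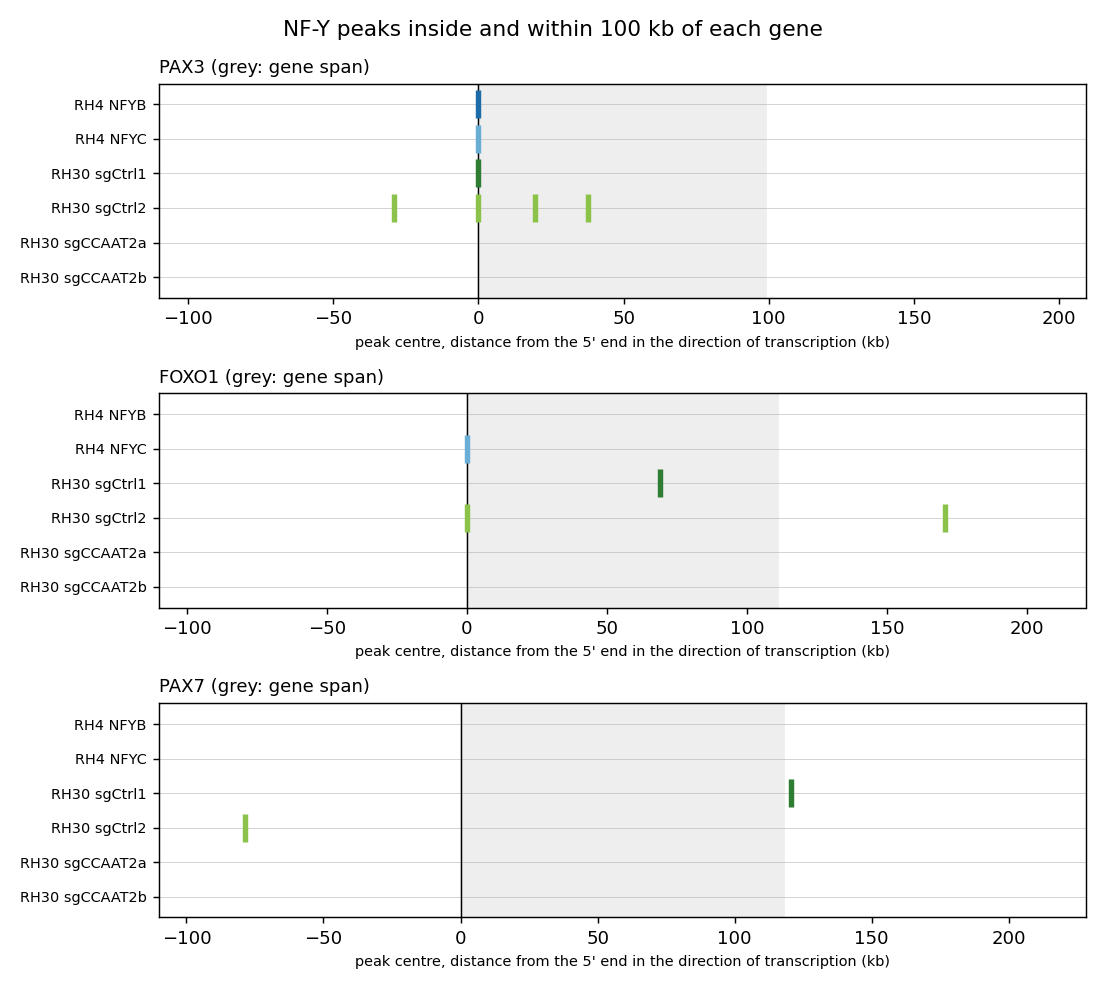
Centres of all NF-Y peaks inside and within 100 kb of PAX3, FOXO1 and PAX7 in the 6 lists, in kb from the 5' end along the direction of transcription, with the gene span in grey. The PAX3 start has a mark in 4 rows and the FOXO1 start in 2; the other marks each appear in 1 row, and the edited rows are empty.

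Among relatives of these genes, an NF-Y peak at the 5' end was found at 1 of 11 with a known strand. Of all 15842 genes, 77.9% had no 5' end peak in any of the 6 peak lists. The list of relatives held 13 genes: PAX1, PAX2, PAX4, PAX5, PAX6, PAX8 and PAX9, FOXO3, FOXO4 and FOXO6, and NCOA1, NCOA2 and INO80D, which are further partners in reported fusions with PAX3. The strand of PAX1 and NCOA2 was not used here. The gene with a peak was FOXO6, which had one in all 6 lists, with centres 265.5 and 270 bp upstream for NFYB and NFYC in RH4, 282 and 239 bp with sgCtrl1 and sgCtrl2, and 263 and 262 bp with sgCCAAT2a and sgCCAAT2b. Unlike at PAX3 and FOXO1, the peak was thus called with both CCAAT guides. The FOXO6 sequence searched, which starts 250 bp upstream, held no CCAAT. Of the 11, 3 held the motif, namely PAX4 and PAX6 with 1 and PAX8, the thyroid and kidney PAX factor, with 2, and none of these 3 had a 5' end peak. PAX8 thus held as many motifs as PAX3 and had no peak inside it or within 100 kb in any list. Of all 15842 promoters, 5766 (36.4%) held a CCAAT, and 3449 of these belonged to genes with no 5' end peak in any list. At least 2 motifs were held by 1985 promoters, and 786 of these belonged to genes with no such peak. FOXO3 had a peak in RH4 only, centred 1321 bp from the 5' end for NFYB and 1336 bp for NFYC, outside the window. PAX5, a regulator of B cells, had a peak 6475 bp (NFYB) and 6446 bp (NFYC) from the 5' end in RH4 only. Within the region, PAX2, a kidney and eye PAX factor, had 5 peaks with sgCtrl2 and 1 in each other list, a wider gap than that of PAX3 with 4 against 1 for sgCtrl1. FOXO6 had 4 with sgCtrl2 and 3 with sgCtrl1. NCOA1 and PAX6 had no peak in the region in any list, and for INO80D each of NFYC, sgCtrl1 and sgCtrl2 had 1. These INO80D peaks were at different sites, centred 154615.5, 75331 and 55270 bp from the 5' end in that order.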

How the data were processed

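Peak lists of 6 CUT&RUN libraries, 1 per antibody and guide, were analysed, with 3 differential tables and 1 consensus list; the IgG libraries were left out and are not analysed here. The values deposited by the authors are peak positions in bp, and the score column holds a constant 1, so no peak height was used. Per the file headers, HOMER findPeaks called each RH30 library alone (2-fold over tag directory S3, 4-fold over 10000 bp), and a further HOMER step made the differential tables. For the RH4 lists the peak caller is not given in the sources used; each entry also names other coordinates. The submitters' processing notes name MACS2, HOMER, bedtools, Bowtie2 and hg38 without roles. Depth is unknown for RH4.

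Distances were taken from the peak centre to the gene's 5' end in RefSeq (GRCh38.p14), with the strand from its promoter table, which covered 15842 of 20037 protein-coding genes; where a gene had several promoters, the one nearest its 5' end was searched. Overlap meant at least 1 bp. With 1 library per group no p-value was computed, and intervals cover counting of genes only. Named genes were the 3 members, 13 listed relatives, neighbours within 100 kb, and up to 8 genes with the same pattern nearest in place; the MOGAT1, EPHA4, AKAP11 and ALDH4A1 peaks were named after seeing their positions. The members and lists were chosen with earlier results of these data known. Overlap and motif code was tested on simulated data and against bedtools 2.31.1 (Python 3.11.15).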

Additional observations from a re-analysis of the deposited data

How the results depend on the processing

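The PAX3 promoter kept its peak in 4 lists, FOXO1 in 2 and PAX7 in 0 with windows of 500 and 3000 bp and with the peak centre required inside the window. With only the earlier entries of each RH30 file and the wider entries in RH4 kept, PAX3 had 2 lists and FOXO1 1. The PAX3 peaks of RH4 are narrower than the medians of 411 and 190.5 bp. Whether place or width follows peak strength is not known here, so these parts need not be stricter. Peaks in the whole region, 7 for PAX3, 4 for FOXO1 and 2 for PAX7 over the 6 lists, became 2, 1 and 0 in these parts of the lists. PAX3 had 7 at 50 and at 250 kb too, FOXO1 had 3 and 7, and PAX7 had 1 and 10. Of the 4 sgCtrl2 peaks around PAX3, 1 was shared with another list also when 50% of both peaks had to overlap. The 252 genes with the pattern of PAX3 ranged from 240 to 264 over the windows, either gene end and the centre rule, and PAX3 was among them each time. Chosen after seeing the data, requiring 3 unedited lists gave 291 without sgCtrl2 and 384 without sgCtrl1, and requiring the controls alone gave 395, since fewer lists were required; the share with no edited peak was then 16.8%, 21.6% and 21.2%. Genes with at least 4 sgCtrl2 peaks numbered 1739 at 100 kb, 628 at 50 kb and 4430 at 250 kb. The longer motif form was in 20.5% of promoters against 36.4% for CCAAT. No paired analysis was possible because each guide and antibody has 1 library.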
